A study of Homo sapiens with 56 samples.

Results

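The TSC22D family is 4 of the 19775 genes that the array names, and it is represented by 15 of the 54613 probe sets that are not controls. They are the probe sets whose only gene symbol in the platform annotation is TSC22D1 (4 probe sets), TSC22D2 (6), TSC22D3 (3) or TSC22D4 (2), and each one was read on its own, because the TSC22D1 probe sets had moved in opposite ways in the line MJ. The family was thus chosen by symbol and selected on the MJ signals of TSC22D1, so the MJ readings are described below without a test. RNA was hybridised to 56 Affymetrix arrays from cultured lines of cutaneous T-cell lymphoma, a cancer of skin-homing T cells, of which there were 4. The groups were HuT102 with cobomarsen and untreated HuT102 at day 4 and day 8, MJ with cobomarsen and untreated MJ at day 4 and day 8, MY-LA with cobomarsen and untreated MY-LA at day 4 and day 8, and HuT78 with cobomarsen and untreated HuT78 at day 8. Each of the 14 groups had 4 arrays. The numbers in the array titles form separate ranges for HuT102 with MJ and for MY-LA with HuT78. What these numbers mark is not stated, and in comparisons across the ranges it cannot be told apart from the line. Cobomarsen (MRG-106) is an oligonucleotide that binds and inhibits the microRNA miR-155, and the series names day 4 as the time for direct targets and day 8 for downstream ones. All wells of a line were seeded alike and diluted by 1 common factor midway. Each line is an established culture from 1 patient, and whether a group's 4 arrays are separate cultures is not stated in the labels. The p-values then reflect only how far arrays within groups differ, which may be technical. In the limma tests this spread was pooled over all 14 groups. The control wells received no oligonucleotide, so an effect of any oligonucleotide and one of inhibiting miR-155 cannot be told apart.

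The TSC22 domain proteins carry a leucine zipper beside a conserved TSC box, and several of the genes make long and short proteins from different transcription starts. TSC22D1 was found as a transcript induced by transforming growth factor beta. TSC22D3, better known as GILZ, is induced by glucocorticoids and by FOXO3, is high in resting lymphocytes, and its protein binds NF-kappaB and AP-1 subunits in T cells. TSC22D2, TSC22D4 and the long form of TSC22D1 bind NRBP1 and take part in the control of cell volume through WNK kinases.

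The sequences shown first are the microRNA that the oligonucleotide inhibits and start regions of the 2 members with the largest changes. They are given as background, and no result below was drawn from them. The mature miR-155-5p, at chr21:25573983-25574006 on the plus strand, is given from RefSeq (GRCh38.p14), and its seed, bases 2 to 8, is in capitals.
hsa-miR-155-5p: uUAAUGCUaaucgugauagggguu
RefSeq places TSC22D1 at chr13:44432143-44577344, TSC22D2 at chr3:150408298-150466422, TSC22D3 at chrX:107713221-107775988 and TSC22D4 at chr7:100466519-100479214 (GRCh38.p14). The table of start regions, from 250 bases before to 50 after each start, held 5 starts of TSC22D1, 4 of TSC22D3 and 1 of TSC22D4. The TSC22D1 starts are spread over 139707 bases, and start 2 lies 235 bases from the first, at the upstream end, while start 5 is the last. Which of these starts each TSC22D1 probe set reads is not given in the sources used here, and the same holds for TSC22D3. Of 4 motifs searched on both strands, with overlapping matches counted, start 2 of TSC22D1 held the TATA box TATAAA 28 bases before the start, start 4 held it at 223 and 113 bases before the start, and starts 1, 3 and 5 held none of the motifs. The capitals below mark a motif match, and a match is a description of the letters only.
TSC22D1 start 2, chr13:44576281-44576580, minus strand: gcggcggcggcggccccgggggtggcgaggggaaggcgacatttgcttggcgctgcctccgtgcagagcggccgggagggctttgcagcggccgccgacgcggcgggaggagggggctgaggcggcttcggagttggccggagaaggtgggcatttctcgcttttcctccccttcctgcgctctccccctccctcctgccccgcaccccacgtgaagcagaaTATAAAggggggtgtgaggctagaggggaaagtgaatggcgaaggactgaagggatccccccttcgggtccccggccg
TSC22D1 start 5, chr13:44436809-44437108, minus strand: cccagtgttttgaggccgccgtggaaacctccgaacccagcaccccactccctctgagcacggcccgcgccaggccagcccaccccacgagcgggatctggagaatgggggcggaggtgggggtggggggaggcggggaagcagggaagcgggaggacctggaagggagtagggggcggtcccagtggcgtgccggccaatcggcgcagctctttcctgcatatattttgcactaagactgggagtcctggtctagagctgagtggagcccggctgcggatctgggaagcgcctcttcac
Start 3 of TSC22D3 held TATAAA 29 bases before the start and the forkhead motif GTAAACA, written as TGTTTAC on the strand shown, 147 bases before it. No other start region of the family held the forkhead motif, and none held the glucocorticoid response element (a palindrome with a gap) or the SMAD palindrome GTCTAGAC.
TSC22D3 start 3, chrX:107717013-107717312, minus strand: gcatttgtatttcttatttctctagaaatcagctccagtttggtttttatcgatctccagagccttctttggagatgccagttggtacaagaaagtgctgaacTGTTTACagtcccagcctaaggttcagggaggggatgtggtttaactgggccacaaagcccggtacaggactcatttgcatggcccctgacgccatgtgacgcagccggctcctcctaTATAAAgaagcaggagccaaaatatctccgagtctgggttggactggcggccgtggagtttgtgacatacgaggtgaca
Among 35116 start regions of 300 bases in the table, 3.42% held GTAAACA, 11.5% TATAAA, 0.390% the glucocorticoid response element and 0.202% the SMAD palindrome.

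Signal is the authors' MAS5 intensity, scaled so that the trimmed mean of every array was 500.1. The level of 1 probe set cannot be set against that of another. Testing was limited, in each comparison, to probe sets whose average log2 value there was at least that of the median of the whole table, a signal of 73.9. Over all 56 arrays 7 of the 15 reached it: 2 of TSC22D1, 1 of TSC22D2, 2 of TSC22D3 and both of TSC22D4. The other 8 had group means between 3.12 and 96.3, and 3 of them reached the median in any group. The upper quartile of signal was between 380.2 and 466 over all arrays. In HuT78 it was 380.2, 385 and 382 in arrays 2, 3 and 4 with cobomarsen and 431 in array 1 with cobomarsen, against 422 to 443 in untreated wells. The T-cell genes CD3D and CD247 had line means of 6292 to 19623 and 3240 to 8700, while LCK was at 13.0 and CD4 at 62.2 in MY-LA and CD2 at 44.4 in HuT78. Markers of other cells partly reached the median of all values: of 3 B-cell genes 1 or 2 in each line, of 4 myeloid genes 1 or 2, of 4 fibroblast genes 1 to 3, of 3 endothelial genes 1, and of 3 keratinocyte genes 1 in HuT78 and 0 in the other lines. Their line means reached 1402 for PAX5 in HuT102, 291 to 389.5 for CD79A, 255 to 1793 for COL1A1, 78.1 to 386 for ITGAM, 144 to 166 for PECAM1 and 708 for KRT1 in HuT78, while KRT14 lay at 3.97 to 7.04 and CD14 and LYZ at 13.3 to 18.7 and 13.4 to 27.2. The part of these markers in the members' results was not tested. A probe set annotated to both miR-155 and its host gene averaged between 11499 and 29906 in the groups of HuT102, MJ and MY-LA, and 36.2 ± 20.1 with cobomarsen against 29.9 ± 7.72 in untreated wells in HuT78 (SD, n = 4 each). That probe set reads the host transcript and not the inhibition of the microRNA.

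TSC22D1, whose MJ signals entered the choice of the family, is given first. On 215111_s_at the signal in MJ was 1803, 1731, 1682 and 2075 with cobomarsen at day 4, against 375, 301, 317 and 326 in untreated wells. At day 8 it was 3027, 3811, 3796 and 3366 with cobomarsen, against 199.9, 250.2, 174 and 226 in untreated wells. The groups lay far apart on both days, and every cobomarsen array at day 8 was above every one at day 4. The log2 change was 2.41 ± 0.10 at day 4 and 3.95 ± 0.10 at day 8 (SE), which is 5.32-fold and 15.4-fold higher with cobomarsen. Untreated MJ was lower at day 8 than at day 4 on this probe set, with a log2 change of -0.60 ± 0.10 and no overlap of the arrays.

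The other measured TSC22D1 probe set did not follow. On 235315_at the signal in MJ at day 8 was 114, 96.7, 100.4 and 97.3 with cobomarsen, against 168, 164, 195 and 149.9 in untreated wells. The cobomarsen arrays all lay below the untreated ones, with a log2 change of -0.65 ± 0.18. At day 4 it was 100.1, 140.0, 115 and 103 with cobomarsen, against 103, 136, 162 and 121 in untreated wells, and the groups overlapped (log2 change -0.16 ± 0.18). These values chose the family and support nothing beyond the description.

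**Figure D1:**
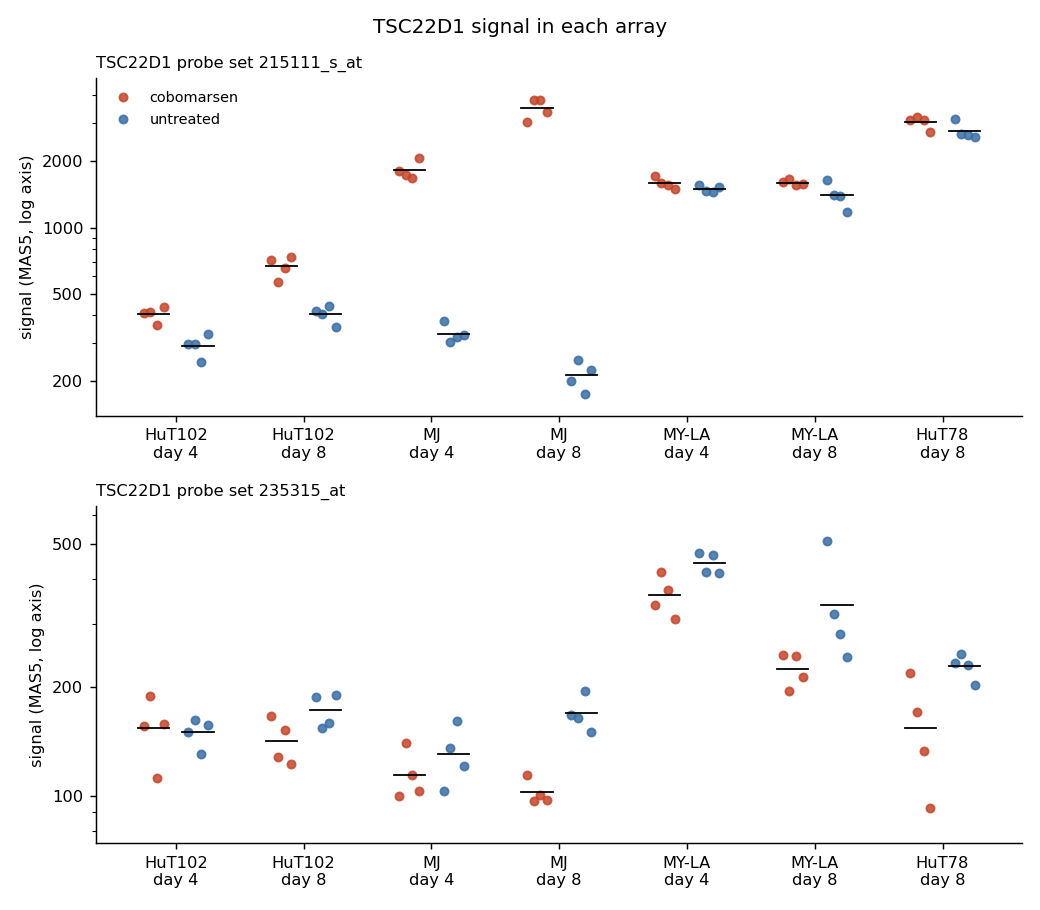
Signal of the 2 measured TSC22D1 probe sets in each array (points, log axis) and group mean (bars), with cobomarsen left of untreated in each line and day. On 215111_s_at the MJ arrays with cobomarsen at day 8 sit between 3027 and 3811 and the untreated ones between 174 and 250.2, while on 235315_at they sit between 96.7 and 114 with cobomarsen and between 149.9 and 195 untreated.

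The rule that chose the family did not use HuT102, although earlier results of these data were known by then. There 215111_s_at also rose. At day 4 its signal was 408, 413, 359.6 and 435 with cobomarsen, against 297, 295, 244 and 327 in untreated wells (log2 change 0.46 ± 0.10, adjusted p = 4.60e-04 in limma). By day 8 the values were 714, 566, 652 and 734 with cobomarsen, against 419, 405, 441 and 353 in untreated wells (log2 change 0.70 ± 0.10, adjusted p = 7.73e-08 in limma). All cobomarsen arrays were above all untreated ones on each day, and the rise was 1.37-fold at day 4 and 1.62-fold at day 8. The difference between the 2 days' effects was 0.24 ± 0.14 on the log2 scale and did not pass the test (adjusted p = 0.439 in limma). In untreated HuT102 the signal was itself higher at day 8 than at day 4 (log2 change 0.46 ± 0.10, adjusted p = 0.00149 in limma, arrays not overlapping).

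In MY-LA and HuT78, where this probe set was already high in untreated wells, its change did not pass the test. In MY-LA the signal was 1720.0, 1598, 1559 and 1496 with cobomarsen at day 4, against 1554, 1462, 1455 and 1530.0 in untreated wells (log2 change 0.085 ± 0.10, adjusted p = 0.598 in limma). The day 8 signal was 1605, 1659.7, 1556 and 1582 with cobomarsen, against 1640.0, 1399, 1390.0 and 1182 in untreated wells (log2 change 0.20 ± 0.10, adjusted p = 0.116 in limma). The untreated MY-LA array of 1640 at day 8 lay among the cobomarsen arrays, and without it the adjusted p was 0.0332. In HuT78 the signal was 3091, 3176, 3080.2 and 2708 with cobomarsen, against 3121, 2664, 2636 and 2585 in untreated wells (log2 change 0.13 ± 0.10, adjusted p = 0.406 in limma). There too 1 untreated array, at 3121, lay among those with cobomarsen and the groups overlapped. The day 8 effect in HuT102 was larger than that in MY-LA by 0.50 ± 0.14 (adjusted p = 0.00385 in limma) and larger than that in HuT78 by 0.56 ± 0.14 (adjusted p = 0.00133 in limma).

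By group mean, 215111_s_at was highest in MJ with cobomarsen at day 8 (3500.1 ± 377), then in HuT78 with cobomarsen (3014 ± 208) and untreated HuT78 (2751 ± 249), all SD with n = 4. MJ with cobomarsen at day 4 came next (1823 ± 175), then the MY-LA groups between 1403 and 1600.4, then HuT102 with cobomarsen at day 8 (666 ± 75.3). The lowest was untreated MJ at day 8 (213 ± 32.8). In this order 9 of the 13 pairs of neighbouring groups overlapped in their arrays. MJ thus held both the highest and the lowest of the 14 group means.

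On 235315_at the cobomarsen mean was the lower one in 6 of 7 comparisons of treatment, the exception being HuT102 at day 4. The MJ comparisons in this count are values that chose the family and add no support. In MY-LA at day 8 the signal was 246, 196, 245 and 213 with cobomarsen, against 509, 319, 280.5 and 243 in untreated wells (log2 change -0.51 ± 0.18, adjusted p = 0.0199 in limma). The groups overlapped, and without the untreated array of 509 the adjusted p was 0.192 and the log2 change -0.30. Without the cobomarsen array of 196 the adjusted p was 0.0677.

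In HuT78 the signal of 235315_at was 219, 170.3, 133 and 92.2 with cobomarsen, against 234, 247, 231 and 203 in untreated wells (log2 change -0.58 ± 0.18, adjusted p = 0.0193 in limma). The lowest 3 arrays were those with cobomarsen and the low upper quartile, and against array 1 with cobomarsen alone, at 219, the log2 change was -0.053. The call was also lost after quantile normalization (adjusted p = 0.166) and when only the HuT78 arrays were fitted (adjusted p = 0.200). It was lost as well without untreated array 1 or 2 or cobomarsen array 3 or 4 (adjusted p = 0.0509 to 0.184). How far the lower signal distribution of these arrays takes part in the result was not tested. In HuT102 this probe set did not change by the test, with log2 changes of 0.017 ± 0.18 at day 4 and -0.26 ± 0.18 at day 8 (adjusted p = 0.969 and 0.271 in limma), nor did it in MY-LA at day 4 (log2 change -0.29 ± 0.18, adjusted p = 0.251 in limma).

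The divergence of the TSC22D1 probe sets was measured within each array as the log2 value of 215111_s_at less that of 235315_at. This quantity was higher with cobomarsen by 0.44 (within-group SD 0.15) in HuT102 at day 4 and by 0.96 (within-group SD 0.23) at day 8. In MY-LA it was higher by 0.38 (within-group SD 0.15) at day 4 and by 0.70 (within-group SD 0.23) at day 8, and in HuT78 by 0.71 (within-group SD 0.30). In HuT78 cobomarsen array 1 was the lowest of its group at 3.72, against an untreated mean of 3.50 and a highest untreated array of 3.65. The HuT78 value thus rests mostly on the cobomarsen arrays with the low upper quartile. In all 5 comparisons outside MJ every cobomarsen array lay above every untreated array of its line and day. Each gave a p of 0.0286 in a two-sided exact permutation test, the smallest that 4 arrays against 4 can give, and 0.0857 after adjustment over the 15 pairs of probe sets tested. None of the 15 therefore passed 0.05 after adjustment, and at an unadjusted 0.05 these 5 did. In MJ, where no test was made, the quantity was higher by 2.57 (within-group SD 0.32) at day 4 and 4.59 (within-group SD 0.29) at day 8. Across the 14 group means the 2 probe sets had a Pearson correlation of 0.19, a description over points that share lines and untreated wells.

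**Figure D2:**
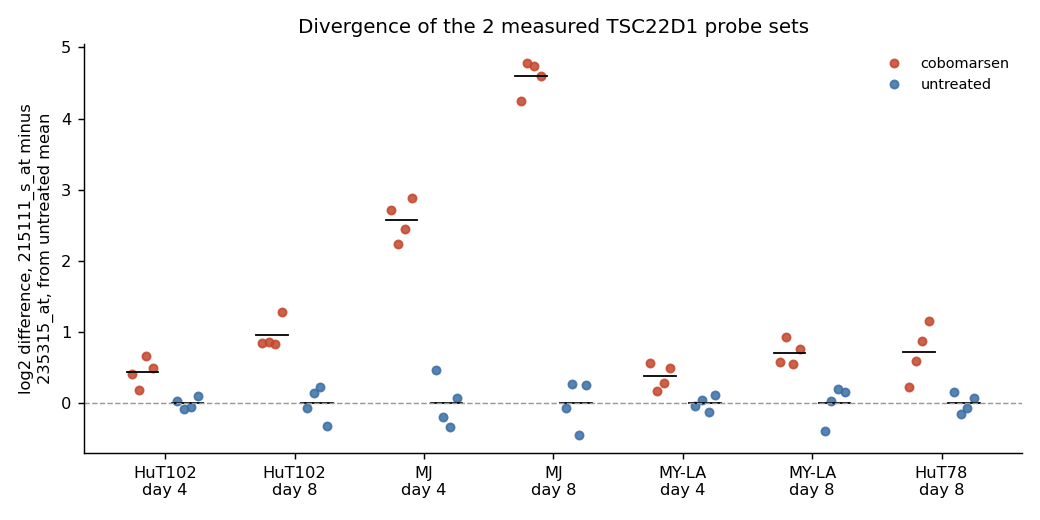
Log2 value of 215111_s_at less that of 235315_at in each array, set to 0 at the untreated mean of the line and day (points, arrays with cobomarsen left of untreated ones, bars, group means). The cobomarsen mean lies above 0 by 0.38 to 0.96 in HuT102, MY-LA and HuT78 and by 2.57 and 4.59 in MJ, and no cobomarsen array overlaps the untreated ones.

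The remaining TSC22D1 probe sets, 239123_at and 243133_at, had group means of 5.58 to 24 and 10.1 to 37.3 and were below the median of all values in all 14 groups.

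TSC22D3, encoding GILZ, rose in HuT102 on both measured probe sets. On 208763_s_at the signal at day 4 was 1057, 1067, 1017 and 999.8 with cobomarsen, against 537, 505, 579.7 and 509 in untreated wells (log2 change 0.94 ± 0.10, adjusted p = 4.25e-11 in limma). Its day 8 values were 1575, 2504, 1801 and 1679 with cobomarsen, against 532, 579, 462 and 587 in untreated wells (log2 change 1.76 ± 0.10, adjusted p = 2.01e-21 in limma). The groups were apart on both days, by 1.92-fold at day 4 and 3.39-fold at day 8. The effect at day 8 exceeded that at day 4 by 0.82 ± 0.13 (adjusted p = 3.05e-05 in limma), while untreated HuT102 differed little between the days (log2 change 0.015 ± 0.10, 95% interval -0.18 to 0.21).

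In MY-LA the direction of 208763_s_at turned between the days. At day 4 the signal was 838, 1029, 1007 and 1111 with cobomarsen, against 749.5, 889.8, 731 and 729.6 in untreated wells (log2 change 0.35 ± 0.10, adjusted p = 0.00469 in limma). At day 8 it was 710.1, 750.2, 669.9 and 602 with cobomarsen, against 860.3, 1014, 965 and 971 in untreated wells (log2 change -0.47 ± 0.10, adjusted p = 7.20e-05 in limma). The signal was thus 1.28-fold higher with cobomarsen at day 4, with 1 untreated array at 889.8 inside the cobomarsen range, and 1.39-fold lower at day 8, where the groups did not overlap. The effect at day 8 less that at day 4 was -0.83 ± 0.13 (adjusted p = 2.07e-05 in limma). Untreated MY-LA was higher at day 8 than at day 4 (log2 change 0.29 ± 0.10, adjusted p = 0.0397 in limma), a call that was lost without the filter on low values (adjusted p = 0.0772), without the intensity trend, when only MY-LA arrays were fitted, and without any of 6 of its 8 arrays.

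The other measured probe set, 207001_x_at, had the same direction of change in HuT102 and MY-LA, with a wider spread. Its suffix marks probes that can bind related transcripts, so its reading of TSC22D3 alone is uncertain. In HuT102 the signal was 198, 233, 249 and 255 with cobomarsen at day 4, against 127, 151, 141 and 85.5 in untreated wells (log2 change 0.83 ± 0.29, adjusted p = 0.0377 in limma). By day 8 the values were 304, 586, 155 and 370.4 with cobomarsen, against 93.8, 128, 92.3 and 50.3 in untreated wells (log2 change 1.70 ± 0.29, adjusted p = 3.92e-06 in limma). The groups did not overlap on either day, but the day 4 call was lost under 5 other settings, among them no filter (adjusted p = 0.0693), and without untreated array 1 or 4 or cobomarsen array 2, 3 or 4 (adjusted p = 0.0632 to 0.137, the highest without the untreated array of 85.5).

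In MY-LA at day 4 the signal of 207001_x_at was 143, 161, 121 and 219 with cobomarsen, against 150.4, 87.5, 129 and 107 in untreated wells (log2 change 0.39 ± 0.29, adjusted p = 0.373 in limma). The day 8 signal was 25.4, 92.9, 61.1 and 128 with cobomarsen, against 225, 142, 197 and 123 in untreated wells (log2 change -1.12 ± 0.29, adjusted p = 0.00166 in limma). The day 8 fall passed the test although the cobomarsen array of 128 lay just above the lowest untreated array, and 2 cobomarsen arrays were under the median of all values. The effect at day 8 less that at day 4 was -1.51 ± 0.41 (adjusted p = 0.00896 in limma). In no tested comparison did the changes of the 2 TSC22D3 probe sets differ by an exact permutation test, with p of 0.143 to 0.914 over 5 comparisons. This does not show that the changes were equal. In MY-LA at day 8 the change of 207001_x_at less that of 208763_s_at was -0.65 (within-group SD 0.68).

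**Figure D3:**
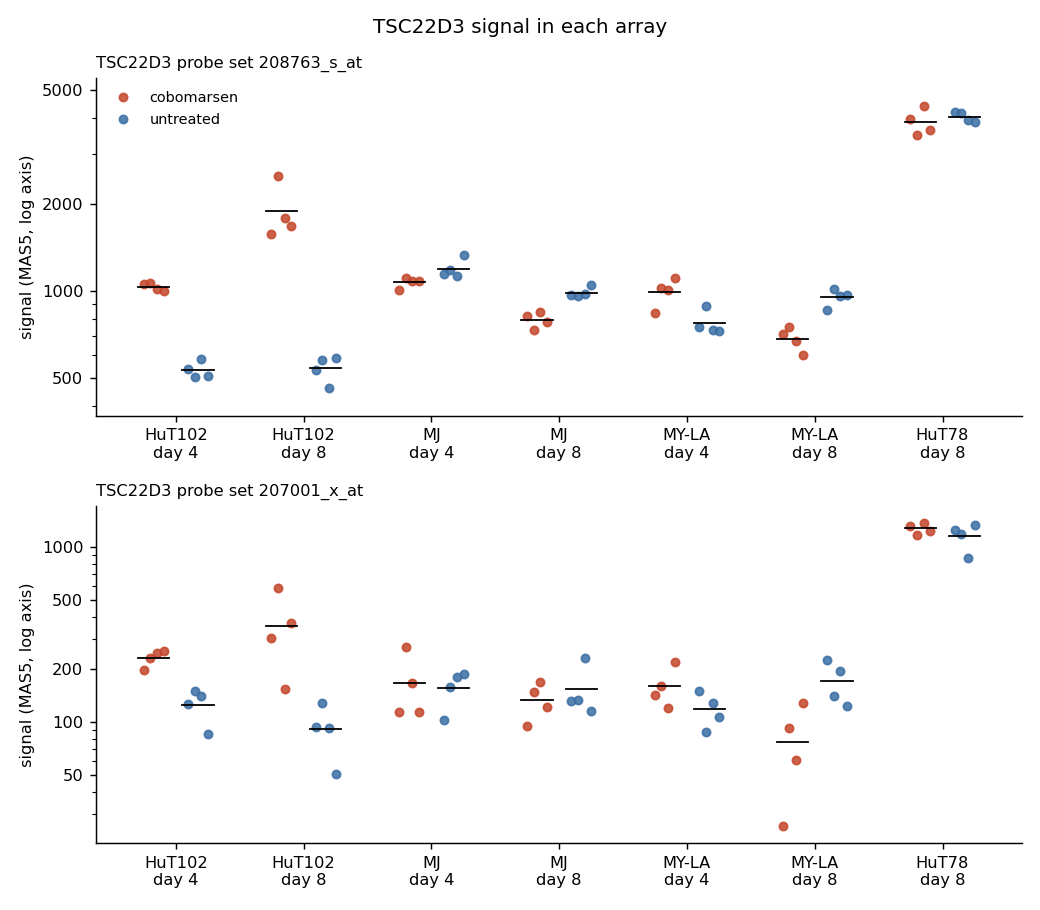
Signal of the 2 measured TSC22D3 probe sets in each array (points, log axis) and group mean (bars), with cobomarsen left of untreated in each line and day. On 208763_s_at the HuT102 arrays at day 8 sit between 1575 and 2504 with cobomarsen and between 462 and 587 untreated, the MY-LA arrays at day 8 between 602 and 750.2 with cobomarsen and between 860.3 and 1014 untreated, and the HuT78 arrays between 3482 and 4376 with cobomarsen and between 3857 and 4195 untreated.

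HuT78 held the most TSC22D3 signal, and cobomarsen did not change it by the test. On 208763_s_at it was 3964, 3482, 4376 and 3629.8 with cobomarsen, against 4195, 4136, 3934 and 3857 in untreated wells (log2 change -0.066 ± 0.10, adjusted p = 0.721 in limma, 95% interval -0.26 to 0.13). On 207001_x_at it was 1317, 1179.5, 1371 and 1242 with cobomarsen, against 1252, 1181, 865 and 1342 in untreated wells (log2 change 0.15 ± 0.29, adjusted p = 0.794 in limma). The cobomarsen and untreated arrays overlapped on both probe sets.

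In MJ 208763_s_at was lower with cobomarsen, a description only. The signal at day 4 was 1009.8, 1113, 1084 and 1088 with cobomarsen, against 1143, 1180.0, 1124 and 1333 in untreated wells (log2 change -0.15 ± 0.10). Its day 8 values were 819.6, 734, 843 and 780.3 with cobomarsen, against 966, 961, 981 and 1047 in untreated wells (log2 change -0.31 ± 0.10). The arrays did not overlap on either day. On 207001_x_at the log2 changes in MJ were 0.024 ± 0.29 at day 4 and -0.16 ± 0.29 at day 8, and the arrays overlapped.

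The effect on 208763_s_at differed between the lines. The HuT102 effect was above the MY-LA effect by 0.59 ± 0.13 at day 4 (adjusted p = 0.00174 in limma) and by 2.23 ± 0.13 at day 8 (adjusted p = 2.84e-19 in limma). At day 8 it was above the HuT78 effect by 1.83 ± 0.13 (adjusted p = 1.07e-15 in limma). The MY-LA effect less the HuT78 effect was -0.41 ± 0.13 (adjusted p = 0.0171 in limma), and this call was lost without the HuT78 cobomarsen array of 4376 (adjusted p = 0.0519) or the MY-LA cobomarsen array of 602 (adjusted p = 0.0529). With HuT78 cobomarsen array 1 alone in its arm the difference was -0.45. On 207001_x_at the day 8 differences were 2.83 ± 0.41 for HuT102 less MY-LA, 1.55 ± 0.41 for HuT102 less HuT78 and -1.28 ± 0.41 for MY-LA less HuT78 (adjusted p = 1.81e-07, 0.00273 and 0.0136 in limma). The last of these was lost without the MY-LA cobomarsen array of 25.4 (adjusted p = 0.0677). With HuT78 cobomarsen array 1 alone in its arm the differences from HuT78 were 1.5 for HuT102 and -1.32 for MY-LA. The differences with array 1 alone, here and on 208763_s_at, are sizes only and do not show whether the calls hold.

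By group mean, 208763_s_at was highest in HuT78, with 3863 ± 397 with cobomarsen and 4030.3 ± 161 untreated, followed by HuT102 with cobomarsen at day 8 (1889.7 ± 419.9), all SD with n = 4. The 2 untreated HuT102 groups were the lowest, with 539.9 ± 57.3 at day 8 and 533 ± 34.6 at day 4. HuT102 with cobomarsen at day 8 overlapped neither the HuT78 arrays above it nor the arrays of the next group below it. Of the 13 pairs of neighbours 8 overlapped. The TSC22D3 probe set 235364_at had group means of 24.4 to 77.1 and reached the median of all values in 1 group.

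TSC22D2 was read by 204094_s_at, whose cobomarsen mean was the lower one in all 7 comparisons of treatment, with log2 changes of -0.43 to -0.078. In none of the 5 tested comparisons did it pass. The largest difference was in HuT78, with signals of 704, 537, 474 and 613 with cobomarsen, against 740.3, 653, 834 and 913 in untreated wells (log2 change -0.43 ± 0.16, adjusted p = 0.0539 in limma). The groups overlapped, the lowest 3 arrays being the 3 with cobomarsen and the low upper quartile. The adjusted p in HuT78 was 0.0376 with the filter at the 75th percentile, 0.0420 with 1 probe set per gene, 0.0156 without cobomarsen array 1 and 0.0415 without untreated array 2.

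In HuT102 at day 8 204094_s_at had signals of 949, 899, 776 and 1213 with cobomarsen, against 1007, 1286, 1021 and 935 in untreated wells (log2 change -0.15 ± 0.16), and in MY-LA at day 8 919.6, 642, 856 and 1041 with cobomarsen, against 1238, 839.8, 907 and 946 in untreated wells (log2 change -0.19 ± 0.16). The arrays overlapped in both lines. In MJ the log2 change was -0.37 ± 0.16 at day 4 and -0.39 ± 0.16 at day 8, when the arrays did not overlap. The other 5 TSC22D2 probe sets had group means between 3.12 and 96.3. Of these 240557_at was measured above the threshold in HuT102 and did not pass the test there, with 96.3 ± 28 with cobomarsen at day 4, against 76 ± 24.7 in untreated wells (SD, n = 4 each, adjusted p = 0.592 in limma).

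TSC22D4 fell on 1554501_at in HuT78. The signal was 203, 97.1, 156 and 117 with cobomarsen, against 254, 271, 254 and 158 in untreated wells (log2 change -0.67 ± 0.18, adjusted p = 0.00974 in limma), and the groups overlapped. Against cobomarsen array 1 alone, at 203, the log2 change was -0.16, and the call was lost when only HuT78 arrays were fitted (adjusted p = 0.182) and after quantile normalization (adjusted p = 0.0703). It was also lost without cobomarsen array 2 (adjusted p = 0.0723) or array 4 (adjusted p = 0.0505). On the other probe set, 208104_s_at, the signal was 19.9, 129, 176 and 87.1 with cobomarsen, against 87, 121, 168 and 182 in untreated wells (log2 change -0.58 ± 0.31, adjusted p = 0.212 in limma), and the groups overlapped. Against cobomarsen array 1 alone, at 19.9, the log2 change was -2.07. With array 1 alone the fall thus shrank on 1554501_at and grew on 208104_s_at.

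In HuT102 at day 8 1554501_at had 464, 479, 512 and 511 with cobomarsen, against 389.5, 389.6, 439 and 410.5 in untreated wells (log2 change 0.26 ± 0.18, adjusted p = 0.286 in limma). The arrays did not overlap, although the test did not pass. It passed when only HuT102 arrays were fitted (adjusted p = 0.0484). In MY-LA at day 8 it had 129.6, 73.1, 64 and 75.6 with cobomarsen, against 145, 103, 124 and 79.8 in untreated wells (log2 change -0.36 ± 0.18, adjusted p = 0.124 in limma), and passed without the cobomarsen array of 129.6 (adjusted p = 0.0196) or the untreated array of 79.8 (adjusted p = 0.0450). The effect on 1554501_at in HuT102 exceeded that in HuT78 by 0.93 ± 0.26 (adjusted p = 0.00416 in limma). With HuT78 cobomarsen array 1 alone in its arm the difference was 0.43, a size that does not show whether the call holds. On 208104_s_at no tested comparison passed, with log2 changes of -0.58 to 0.17 in the 5 comparisons of treatment. In MJ the log2 changes of 1554501_at were 0.13 ± 0.18 and -0.03 ± 0.18 and those of 208104_s_at -0.48 ± 0.31 and -0.34 ± 0.31 at day 4 and day 8, with overlapping arrays.

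**Figure D4:**
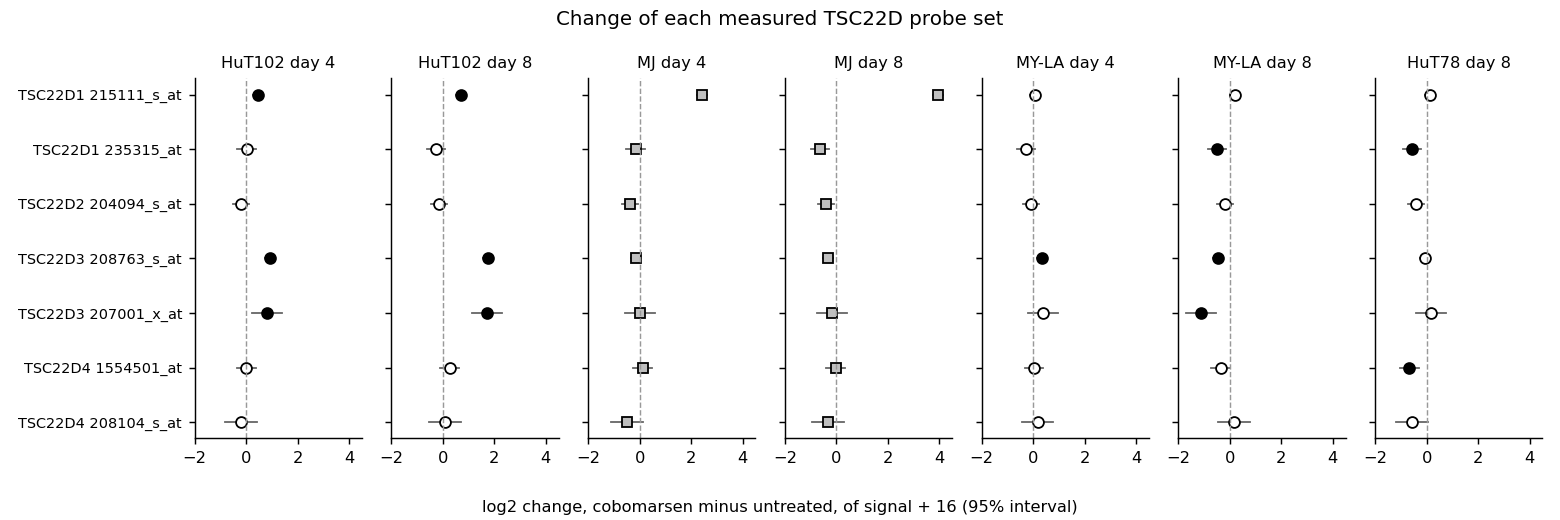
Log2 change of signal + 16, cobomarsen less untreated, of the 7 measured TSC22D probe sets in each line and day, with the 95% interval from the fit over all arrays. Filled circles passed the test, open circles did not, and grey squares are the MJ values, which were not tested. 215111_s_at lies above 0 in all 7 panels, of which those of MJ hold values that chose the family. 204094_s_at lies below 0 in all 7, while 208763_s_at lies at 0.94 and 1.76 in HuT102 and at 0.35 and -0.47 in MY-LA.

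Counted by comparison, with a probe set called at a limma p under 0.05 after Benjamini-Hochberg adjustment, the family was set beside all probe sets tested. In HuT102 at day 4, 3 of 8 members tested were called, 3 higher and 0 lower, where 17.7% of all probe sets were called, 9.27% higher and 8.48% lower. In HuT102 at day 8, 3 of 8 were called, all higher, where 34.2% of all probe sets were called, 18% higher and 16.2% lower. The members called on both days were 215111_s_at, 208763_s_at and 207001_x_at.

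In MY-LA at day 4, 1 of 7 members tested was called, higher, where 22% of all probe sets were called, 10.8% higher and 11.1% lower. At day 8, 3 of 7 were called, all lower, where 35.6% were called, 19.9% higher and 15.8% lower. In HuT78, 2 of 7 were called, both lower, where 15.3% were called, 6.43% higher and 8.85% lower. With only the HuT78 arrays in the fit none of the members was called, and 3 of 25236 probe sets were, so the HuT78 calls rest on a spread pooled over all lines. At day 8 the shares called in HuT102 and MY-LA were near those of all probe sets, so those counts show nothing particular to the family.

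For the differences of effects, 1 of 8 members was called between the days in HuT102, where 4.53% of all probe sets were, and 2 of 7 in MY-LA, where 13.4% were. Between day 8 and day 4 of untreated wells, 1 of 7 was called in HuT102 and 1 of 7 in MY-LA, where 6.68% and 9.41% of all probe sets were. For HuT102 against MY-LA, 1 of 8 was called at day 4 and 3 of 7 at day 8, where 12.9% and 33.6% were. For HuT102 against HuT78 it was 4 of 7, where 30.7% were, and for MY-LA against HuT78 2 of 7, where 31.1% were. Quantile normalization moved the median of all probe sets by -0.13 in the comparison of HuT102 against HuT78 and by less than 0.1 elsewhere.

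The genes of pathways around the family were read by the probe set with the highest mean of each gene. Read in this way, 21.6% of all genes tested were called in HuT102 at day 4 (9.55% higher and 12% lower) and 39.1% at day 8 (18.4% higher and 20.7% lower). In MY-LA 25.2% were called at day 4 (12.9% higher and 12.3% lower) and 40.8% at day 8 (23% higher and 17.8% lower), and in HuT78 19.9% were (9.61% higher and 10.3% lower). The median log2 change over these genes was between -0.049 and 0.018 in the 5 comparisons. The list counts that follow are to be read beside these shares, and nothing particular to a list is drawn from them.

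Of 14 genes of the glucocorticoid list, which holds the receptor and genes it induces but no TSC22D gene, 12 were tested in HuT102, where 4 were called higher and 0 lower at day 4 and 6 higher and 3 lower at day 8. Over all genes 21.6% and 39.1% were called there. The list medians were 0.20 and 0.41 on the log2 scale, beside -0.027 and -0.0012 over all genes. In MY-LA 9 were tested, of which 3 were called higher and 4 lower at day 4 and 1 higher and 5 lower at day 8, with list medians of -0.20 and -0.51 beside 0.0013 and 0.018. Of all genes 25.2% and 40.8% were called in MY-LA. In HuT78 2 of 12 were called higher and 0 lower, where 19.9% of all genes were called, with a median of 0.055 beside -0.049.

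TXNIP, an inhibitor of thioredoxin and of glucose uptake, was at 4317 ± 662 with cobomarsen, against 1056 ± 175 in untreated wells in HuT102 at day 8 (SD, n = 4 each, log2 change 2.02 ± 0.13, adjusted p = 1.19e-18 in limma). In MY-LA at day 8 it was at 406 ± 83 with cobomarsen, against 1224 ± 143 in untreated wells (SD, n = 4 each, log2 change -1.57 ± 0.13, adjusted p = 1.38e-14 in limma). At day 8 TXNIP and GILZ thus had the same direction in each of these lines, but at day 4 in MY-LA TXNIP fell (log2 change -0.67 ± 0.13, adjusted p = 7.05e-05 in limma) where GILZ rose. NR3C1, the glucocorticoid receptor, rose in HuT102 at day 4 (log2 change 0.57 ± 0.079, adjusted p = 1.59e-07 in limma), and its log2 change at day 8 was 0.81 in HuT102 and -0.51 in MY-LA. NR3C1 also fell in MY-LA at day 4 (log2 change -0.31 ± 0.079, adjusted p = 0.00281 in limma), with overlapping arrays. FKBP5, a chaperone of the receptor that glucocorticoids induce, was named here after its values were seen. It fell in HuT102 at day 8 (log2 change -0.78 ± 0.18, adjusted p = 3.49e-04 in limma), where the TSC22D3 signal rose, and in MY-LA at day 8 (log2 change -0.69 ± 0.18, adjusted p = 0.00144 in limma). DDIT4, an inhibitor of mTORC1, was lower at day 8 in both HuT102 (log2 change -1.07 ± 0.13, adjusted p = 3.07e-09 in limma) and MY-LA (log2 change -1.04 ± 0.13, adjusted p = 7.64e-09 in limma). SGK1, a kinase induced by glucocorticoids, had signals of 105 ± 17.4 with cobomarsen, against 57.6 ± 25.8 in untreated wells in HuT102 at day 8 (SD, n = 4 each). No glucocorticoid treatment is named in the labels, and whether the receptor takes part in these changes was not tested.

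**Figure D5:**
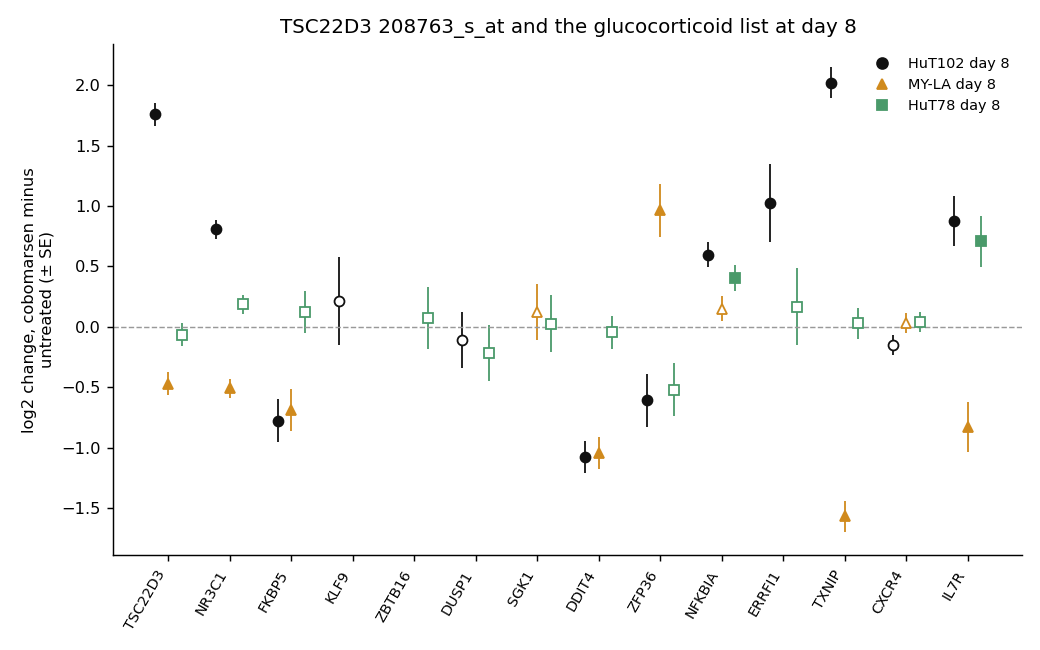
Log2 change at day 8, cobomarsen less untreated, with SE, of TSC22D3 on 208763_s_at and of the genes of the glucocorticoid list in HuT102, MY-LA and HuT78. Filled symbols passed the test, and a gene not tested in a line, or with a group mean under 73.9, has no symbol there. TSC22D3 and TXNIP lie at 1.76 and 2.02 in HuT102 and at -0.47 and -1.57 in MY-LA.

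Of the FOXO factors, which drive quiescence genes, 2 of 3 were tested in HuT102 and in MY-LA. In HuT102 1 was called higher at day 4 and 2 at day 8, where 21.6% and 39.1% of all genes were called, with list medians of 0.70 and 1.29 on the log2 scale. In MY-LA 1 was called higher and 1 lower at day 4 and 2 higher at day 8, where 25.2% and 40.8% of all genes were called, with medians of 0.052 and 0.65, and in HuT78 0 of 3 were called, with a median of -0.022. FOXO3 was at 3331 ± 183 with cobomarsen, against 1054 ± 54.2 in untreated wells in HuT102 at day 8 (SD, n = 4 each, log2 change 1.64 ± 0.068, adjusted p = 4.59e-26 in limma). In MY-LA at day 8 FOXO3 also rose (log2 change 0.29 ± 0.068, adjusted p = 5.22e-04 in limma), where the TSC22D3 signal fell. Whether FOXO3 takes part in the changes of TSC22D3 was not tested.

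Of 7 reported protein partners of GILZ, 3 of 6 tested were called higher in HuT102 at day 4 and 4 of 6 at day 8, with 0 lower (list medians 0.36 and 0.55 on the log2 scale), where 9.55% and 18.4% of all genes were called higher. In MY-LA it was 1 of 5 at day 4 and 3 of 5 at day 8, with 0 lower (medians 0.098 and 0.50), where 12.9% and 23% of all genes were called higher. In HuT78 0 of 4 were called higher and 1 lower (median -0.20), where 19.9% of all genes were called. CEBPB, a transcription factor of the C/EBP family, rose in HuT102 at day 8 (log2 change 1.37 ± 0.13, adjusted p = 8.74e-13 in limma) and in MY-LA at day 8 (log2 change 0.79 ± 0.13, adjusted p = 1.85e-06 in limma). RELA, a subunit of NF-kappaB, rose in HuT102 at day 8 (log2 change 0.60 ± 0.12, adjusted p = 3.46e-05 in limma) and fell in HuT78 (log2 change -0.50 ± 0.12, adjusted p = 0.00255 in limma), where it was at 1195 ± 371 with cobomarsen, against 1660.4 ± 263 in untreated wells with overlapping arrays (SD, n = 4 each). The RELA call in HuT78 also rests on a spread pooled over all lines.

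Of 10 genes of the transforming growth factor beta list, 9 were tested in each line. In HuT102 1 was called higher and 1 lower at day 4 and 2 higher and 3 lower at day 8 (list medians -0.056 and -0.039 on the log2 scale), where 21.6% and 39.1% of all genes were called. In MY-LA 2 were higher and 3 lower at day 4 and 2 higher and 2 lower at day 8 (medians -0.29 and -0.028), where 25.2% and 40.8% were called, and in HuT78 1 was higher and 1 lower (median -0.047), where 19.9% were. SMAD3, a signal transducer of the receptor, rose in HuT102 (log2 change 1.55 ± 0.16, adjusted p = 7.53e-12 at day 8 in limma), and TGFBR2, a receptor subunit, fell there (log2 change -0.64 ± 0.12, adjusted p = 2.67e-05 at day 8 in limma). TGFB1, a ligand, was at 1592 ± 903 with cobomarsen, against 2601 ± 224 in untreated wells in HuT78, with a wide spread under cobomarsen and overlapping arrays (SD, n = 4 each, log2 change -0.89 ± 0.18, adjusted p = 9.08e-04 in limma). This HuT78 call, like those of the members, rests on a spread pooled over all lines.

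Of 14 genes of the list around NRBP1 and the WNK kinases, 9 were tested in HuT102, with 2 called higher and 2 lower at day 4 and 1 higher and 3 lower at day 8 (list medians -0.10 and -0.084 on the log2 scale), where 21.6% and 39.1% of all genes were called. In MY-LA 5 of 10 were called higher and 0 lower on each day (medians 0.14 and 0.22), where 12.9% and 23% of all genes were called higher, and in HuT78 1 of 9 was higher and 1 lower (median 0.034), where 19.9% of all genes were called. STK39, the kinase SPAK that WNK kinases activate, was at 5085 ± 361 with cobomarsen, against 2202 ± 106 in untreated wells in HuT102 at day 8 (SD, n = 4 each, log2 change 1.20 ± 0.11, adjusted p = 1.07e-12 in limma) and rose in MY-LA at day 8 (log2 change 0.88 ± 0.11, adjusted p = 9.77e-09 in limma). NRBP1, the partner of the long TSC22D proteins, fell in HuT102 at day 8 (log2 change -0.63 ± 0.10, adjusted p = 9.44e-07 in limma).

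The genes most like the members in pattern were taken from 11710 genes by Pearson correlation, as a description over 14 group means that share lines or over 7 differences that share lines. For 215111_s_at the closest by group means were CD99L2, KDM2A and DHX40 (0.92, 0.91 and 0.90) and by differences LEF1, CHST11 and HOXB7 (0.98 each). The MJ differences, up to 3.95 on this probe set, weigh most here and are values that chose the family. By differences the closest of the 11710 genes reached 0.977 to 0.996 for every measured member probe set, so such values mark nothing particular. For 208763_s_at they were ARHGEF3, VIPR1 and EVL by group means (0.97, 0.95 and 0.94) and ZNF254, IRS4 and PEX16 by differences (0.99 each).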

How the data were processed

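Values are the deposited signal intensity of 54675 probe sets (62 controls) on a linear scale, made with MAS5 per the submitters' processing notes. Group means of log2(signal + 16) were modelled over all 56 arrays (42 residual degrees of freedom, median prior 9.09, with an intensity trend) in limma 3.58.1 (R 4.3.3). A probe set was tested where its mean over the arrays compared reached a log2 of 6.49 (signal 73.9). The two-sided p-values were adjusted by Benjamini-Hochberg across every probe set tested and read at 0.05. Probe sets of 1 gene were compared by exact permutation. Where a group mean lay under 73.9, no fold is given. Precision is limited by the number of arrays. The members and gene lists were chosen with earlier results of these data known. All members are described, and up to 3 called genes per list and 3 genes most like each member could be named. Quality was checked on the median, upper quartile and 3' to 5' ratios of each array. Alternatives were log2(signal + 1) and log2(signal + 64), quantile normalization, filtering at the 75th percentile or not at all, only the lines compared, no intensity trend, 1 probe set per gene and leaving out each array. HuT78 with cobomarsen array 1 alone was added after seeing the data. Sequences come from RefSeq tables (GRCh38.p14), which held start regions for 3 of the 4 genes. Python 3.11.15 with pandas 2.3.3, NumPy 2.4.6, SciPy 1.17.1 and Matplotlib 3.10.9 was also used, and the fit was tested on simulated data.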

Additional observations from a re-analysis of the deposited data

Results flagged for a closer look

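Among 98 groups of 4 arrays, the highest or lowest array stood apart from the other 3 in 7, by most of the group's range (Dixon's test at 95%), where chance gives about 1 in 20. On 215111_s_at (TSC22D1) this was an untreated HuT78 array at 3121. On 204094_s_at (TSC22D2) it was an array at 1055 in HuT102 with cobomarsen at day 4 and one at 1594 in untreated HuT102 at day 4. On 208763_s_at (TSC22D3) it was an untreated MY-LA array at 889.8 at day 4. On 1554501_at (TSC22D4) it was an array at 390.5 in HuT102 with cobomarsen at day 4, one at 208 in MJ with cobomarsen at day 8 and one at 158 in untreated HuT78.

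Of 44 differences of effects tested with limma, 13 passed, where 4.53% to 33.6% of all probe sets passed in the same comparisons. The count by itself shows nothing particular to the family. Between the days, the effect on 208763_s_at at day 8 less that at day 4 was 0.82 in HuT102 and -0.83 in MY-LA, and that on 207001_x_at was -1.51 in MY-LA. For HuT102 less MY-LA, the difference was 0.59 on 208763_s_at at day 4, and at day 8 it was 2.23 on 208763_s_at, 2.83 on 207001_x_at and 0.50 on 215111_s_at. For HuT102 less HuT78 at day 8 it was 1.83 on 208763_s_at, 1.55 on 207001_x_at, 0.56 on 215111_s_at and 0.93 on 1554501_at. For MY-LA less HuT78 at day 8 it was -0.41 on 208763_s_at and -1.28 on 207001_x_at.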

How the results depend on the processing

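No tested result changed its sign to a call in the other direction under any alternative. The counts of called members moved by over 1.5 times as follows. With the filter at the 75th percentile the count was 1 in HuT102 at day 4, 1 in MY-LA at day 8, 1 in HuT78, 0 in untreated HuT102, 1 for the MY-LA day difference and 1 for MY-LA against HuT78, since fewer members were tested, and 2 for HuT102 against MY-LA at day 4, where 215111_s_at gained a call (adjusted p = 0.0481). With 1 probe set per gene it was 1 in MY-LA at day 8, 1 for the MY-LA day difference and 1 for MY-LA against HuT78. In HuT78 it was 0 after quantile normalization and 0 with only the HuT78 arrays, where 3 probe sets were called in place of 3856 and the cause was not tested. With HuT78 cobomarsen array 1 alone, 1 array in an arm, calls are not read. The log2 change in HuT78 was then -2.07 on 208104_s_at and -0.16 on 1554501_at. In untreated MY-LA the count of called members was 0 without the filter, 0 without the intensity trend and 0 with only MY-LA arrays. With log2(signal + 64) the MJ changes of TSC22D1 were 2.26 and 3.69 on 215111_s_at and -0.49 at day 8 on 235315_at. Leaving out 1 array gave counts of 2 to 3 in HuT102 at day 4, 2 to 4 in MY-LA at day 8, 0 to 3 in HuT78, 0 to 2 in untreated MY-LA, 1 to 2 for HuT102 against MY-LA at day 4, 3 to 4 for the same at day 8 and 1 to 2 for MY-LA against HuT78. Without HuT78 cobomarsen array 4 the HuT78 count was 0, and it was 1 without cobomarsen array 2, cobomarsen array 3 or untreated array 1. No paired analysis was made, because the labels carry no replicate numbers shared between groups. The title numbers alternate between untreated and cobomarsen arrays in HuT102, MJ and HuT78, and whether this marks pairs is not stated. The 8 dim probe sets are limited by signal over background.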
